A study of Mus musculus with 24 samples.

Results

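The genes described here are 8 listed genes of cholesterol synthesis and its feedback control: Hmgcs1, Idi1, Fdps, Fdft1, Sqle, Lss, Cyp51 and Insig1. They were found by gene symbol in the probe annotation of the array. A probe set was listed for 7 of the 8, Insig1 was not analysed here, and all 7 were among the 8008 genes tested. These 7 genes have 19 of the 22690 probe sets, and 11 of the 19 passed the filter on low signal. None of the 7 takes up cholesterol, so genes of uptake are described from a separate list.

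The study measured RNA of the left lobe of the lung in 24 male mice, with 1 Affymetrix array per mouse and 3 mice in each of 8 groups. The strain C3H/HeJ (HeJ) carries a dominant negative form of Tlr4, the receptor for bacterial lipopolysaccharide. The related strain C3H/HeOuJ (OuJ) has a sufficient Tlr4. In each strain 1 group was kept in air, and the others breathed the oxidant gas ozone for 6, 24 or 48 h. Both strains kept these Tlr4 alleles in every group. The sources used here give neither the age of the mice nor the ozone concentration. A 72 h exposure that the labels also mention was not analysed here.

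Cholesterol is built in the endoplasmic reticulum from acetyl-CoA, first through the mevalonate pathway to isoprenoids, then to squalene, and then through closure and trimming of the sterol rings. When membrane sterol is low, the sterol regulatory element binding proteins (SREBPs) are released from the endoplasmic reticulum, with Scap as their escort and the Insig proteins as their anchors, and switch on most enzymes of the pathway together. In the lung, alveolar type 2 cells need cholesterol as a component of surfactant, and alveolar macrophages take it up and export it again.

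Promoter sequences of 5 listed genes (Cyp51, Hmgcs1, Idi1, Lss and Insig1) were held in the RefSeq table for GRCm38.p6, as windows of 300 bases from 250 bases before to 50 bases after the annotated start. Fdft1, Sqle and Fdps were not in that table. The 250 bases before the start are given for 3 genes: Cyp51, which had the largest change of the members, Hmgcs1, whose window held the searched letters of the sterol element, and Idi1, which had the second largest change. They are written 5′ to 3′ along the gene, with Cyp51 on the minus strand at chr5:4104698-4104947, Hmgcs1 on the plus strand at chr13:119690101-119690350 and Idi1 on the plus strand at chr13:8885356-8885605. Capitals mark the core of the sterol regulatory element, TCACNCCAC, at which SREBPs can bind, and the NF-Y box, CCAAT, which reads ATTGG where it lies on the opposite strand.
Cyp51: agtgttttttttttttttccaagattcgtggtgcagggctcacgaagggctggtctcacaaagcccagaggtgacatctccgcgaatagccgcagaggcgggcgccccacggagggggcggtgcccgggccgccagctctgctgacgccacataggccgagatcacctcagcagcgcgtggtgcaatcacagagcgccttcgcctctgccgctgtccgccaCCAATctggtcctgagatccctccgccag
Hmgcs1: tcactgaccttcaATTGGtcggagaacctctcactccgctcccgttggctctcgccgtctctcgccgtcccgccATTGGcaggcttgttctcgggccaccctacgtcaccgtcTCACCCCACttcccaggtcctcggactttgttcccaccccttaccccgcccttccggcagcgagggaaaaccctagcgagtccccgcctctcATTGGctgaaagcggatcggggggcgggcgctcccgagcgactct
Idi1: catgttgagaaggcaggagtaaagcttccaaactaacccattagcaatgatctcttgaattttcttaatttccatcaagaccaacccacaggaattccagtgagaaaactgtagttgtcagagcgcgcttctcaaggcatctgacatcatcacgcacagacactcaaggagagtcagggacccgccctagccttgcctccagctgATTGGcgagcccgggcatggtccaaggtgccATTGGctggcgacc
Both strands were searched for TCACNCCAC, CCAAT and the Sp1 box GGGCGG, and no base lay in several matches. TCACNCCAC was found in 1 of the 5 windows, that of Hmgcs1, where TCACCCCAC begins 137 bases before the start. It was found in 1.24% of 32851 promoter windows of the same length. CCAAT was found in 5 of 5 windows, against 37.4% of all windows, and GGGCGG in 5 of 5, against 35.7%. Idi1 has CCAAT on the opposite strand 45 and 14 bases before the start, and Cyp51 has it on the same strand 29 bases before. These are matches of letters, and the array did not measure binding. Only these exact letters were searched, so a window without a match may still hold a sterol regulatory element.

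All 24 arrays gave strong signals of the lung markers Sftpc, Scgb1a1 and Ager, with lowest values of 27216, 24983 and 12835. Array medians ran from 200.1 to 229.3, and arrays of a group correlated at r between 0.966 and 0.979 across probe sets. The sample codes in the labels form 3 series: series 3 holds air and 6 h of both strains, series 10 holds OuJ at 24 and 48 h, and series 13 holds HeJ at 24 and 48 h. In comparisons of 24 or 48 h with air, ozone and code series therefore cannot be told apart, and what the codes mean was not stated. The 48 h and 24 h groups of a strain lie within 1 series. At these times the strains lie in different series. A strain difference of the 24 or 48 h change from air therefore cannot be told apart from a difference of series. The tissue is bulk lung, in which fewer cells of a type and less RNA per cell cannot be told apart.

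The cholesterol synthesis transcripts were highest in HeJ mice after 48 h of ozone. All 7 measured members had their highest group mean there, as did 17.9% of all genes, and in all 7 the 3 arrays of that group lay above the 3 HeJ air arrays, a pattern seen in 13.7% of all genes. Of the 7, 5 rose past the threshold (adjusted p under 0.05 in limma, adjusted over all genes): Cyp51, Idi1, Fdft1, Sqle and Fdps. The same comparison called 12.1% of all genes, and 5.67% of all genes as higher. The median change of the 7 members was 0.73 on the scale of log2(signal + 16), against -0.03 over all genes. The members were chosen with earlier results of these data known. Their distance from all genes may thus partly follow from the choice and is a description only. No member passed at 6 or 24 h in either strain. None passed in OuJ at 48 h either, where 7.9% of all genes were called, the members' median change was 0.26 and 2 members, Idi1 and Fdps, had all arrays above air (12.5% of all genes). Levels of different probe sets are not comparable with each other, so each gene is followed only across the groups.

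**Figure D1:**
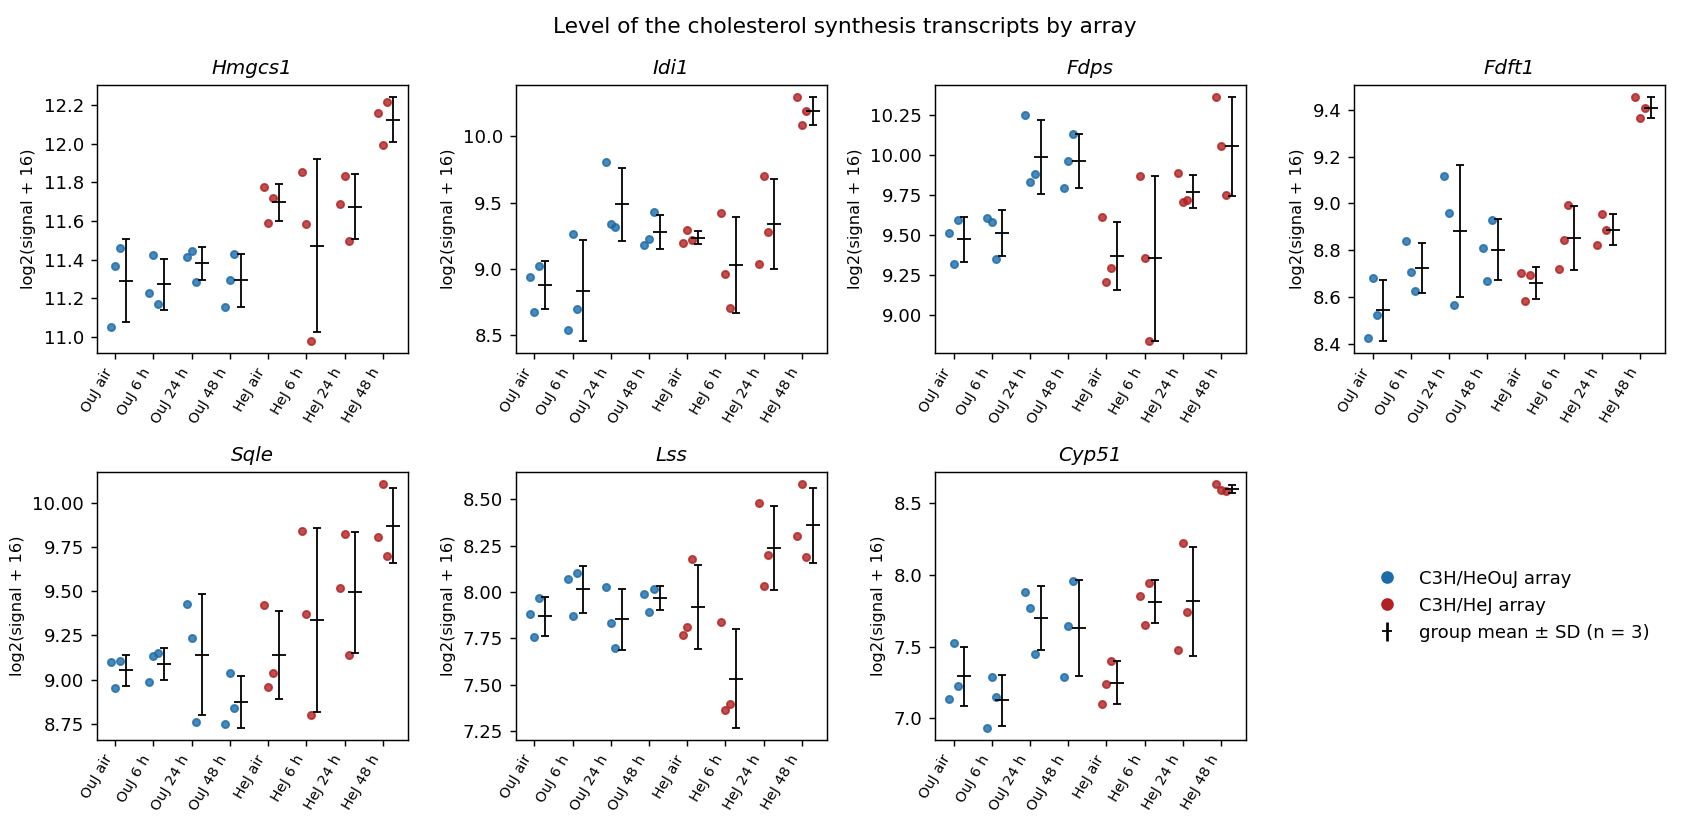
Level of the 7 measured members, as log2(signal + 16), in each of the 24 arrays by strain and exposure. Each point is 1 array and the black bar is the group mean ± SD (n = 3). For Cyp51, Fdft1, Hmgcs1 and Idi1 the 3 HeJ 48 h arrays lie above all 21 other arrays, as in 1.95% of all genes.

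Among the enzymes of the mevalonate pathway, Hmgcs1 (hydroxymethylglutaryl-CoA synthase) condenses acetyl-CoA units at the entrance of the pathway. Its signals were 3496, 3069 and 3361 in HeJ air and 4561, 4063 and 4743 in HeJ at 48 h. They were 2105, 2624 and 2797 in OuJ air and 2261, 2501 and 2740 in OuJ at 48 h. The HeJ 48 h arrays were thus the highest of all 24, while the OuJ arrays at 48 h lay among those in air. The change in HeJ at 48 h was 0.43 ± 0.15 (SE), which missed the threshold (limma adjusted p = 0.07625), and in OuJ it was 0.00 ± 0.15. In HeJ it passed without HeJ 6 h replicate 1 (limma adjusted p = 0.0412) or replicate 3 (limma adjusted p = 0.01781), which leave the size of the change as it was. In air, all 3 HeJ arrays were above all 3 OuJ arrays, with a difference of 0.41 ± 0.15 that did not pass (limma adjusted p = 0.2139), and 12.5% of all genes were apart in this way.

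Idi1 (isopentenyl diphosphate isomerase) interconverts the isoprenoid building blocks. It had signals of 571, 612 and 578 in HeJ air, 508, 817 and 606 at 24 h, and 1241, 1068 and 1150.3 at 48 h. In OuJ it had 473, 392 and 504 in air, 877, 631 and 622 at 24 h, and 565, 583 and 672 at 48 h. The 48 h arrays of HeJ stood apart from all others. In OuJ the arrays at 24 and at 48 h lay above those in air and overlapped each other. Idi1 rose 1.936-fold in HeJ at 48 h (0.95 ± 0.19, limma adjusted p = 0.002095). Its change in OuJ was 0.61 ± 0.19 at 24 h, just outside the threshold (limma adjusted p = 0.05629), and 0.40 ± 0.19 at 48 h (limma adjusted p = 0.2231).

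Fdps (farnesyl diphosphate synthase) supplies farnesyl diphosphate for squalene and for protein prenylation. Among the members it had the smallest strain difference at 48 h. Its signals were 766, 576 and 612 in HeJ air and 1301, 1048 and 844 at 48 h, and 713, 623 and 757 in OuJ air and 871, 981 and 1107 at 48 h. At 48 h the arrays of each strain lay above those of its own air group, and 8 arrays of other groups were above the lowest HeJ 48 h array. The change passed in HeJ (0.68 ± 0.19, limma adjusted p = 0.02064) and not in OuJ (0.49 ± 0.19, limma adjusted p = 0.1271). The difference between these changes was 0.20 ± 0.27 (95% interval -0.36 to 0.76).

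Fdft1 (squalene synthase) joins farnesyl units at the branch point that commits them to sterols. Its signals were 401, 367 and 398 in HeJ air, 437, 479.7 and 457 at 24 h, and 685, 643 and 664 at 48 h. In OuJ they were 327, 395 and 352 in air and 433, 391 and 471 at 48 h. The 3 HeJ 48 h arrays lay close together and above all other arrays, while the OuJ 48 h arrays overlapped those in air. Fdft1 rose 1.682-fold in HeJ at 48 h (0.75 ± 0.12, limma adjusted p = 0.0004213), and in OuJ its change was 0.26 ± 0.12 (limma adjusted p = 0.2278).

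Sqle (squalene epoxidase) adds the oxygen that is needed to close the sterol rings and is a slow step of the pathway. Its signals were 669.8, 481 and 510.2 in HeJ air and 881, 1087 and 814 at 48 h. In OuJ they were 533, 479 and 535 in air and 414, 509 and 442 at 48 h. All HeJ 48 h arrays were above the HeJ air arrays, and all OuJ 48 h arrays were below the mean of OuJ air, with ranges that overlapped. Sqle rose 1.661-fold in HeJ (0.73 ± 0.21, limma adjusted p = 0.02268) and had a change of -0.18 ± 0.21 in OuJ (limma adjusted p = 0.7007).

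Lss (lanosterol synthase) folds the epoxide into lanosterol. Its signals were low: 202, 209 and 274 in HeJ air and 300.1, 368 and 276 at 48 h, with 15 of 24 arrays above the median of all values, 218.3. The 48 h arrays lay above the air arrays by a narrow gap. The change was 0.44 ± 0.17 and missed the threshold (limma adjusted p = 0.08958), which it passed with array weights (limma adjusted p = 0.04874). In OuJ it was 0.10 ± 0.17.

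Cyp51 (lanosterol 14α-demethylase) removes a methyl group from lanosterol and had the largest change among the members. Its signals were 121, 135 and 153 in HeJ air, 215, 185 and 229 at 6 h, 162, 283 and 198 at 24 h, and 381, 368 and 367 at 48 h. In OuJ they were 124, 168 and 133 in air and 141, 184 and 232 at 48 h. The exposed HeJ arrays were above the HeJ air arrays at each time, and the 48 h arrays were above all others. Cyp51 rose 2.553-fold at 48 h (1.35 ± 0.20, limma adjusted p = 0.0001261). At 6 and at 24 h the change was 0.57 ± 0.20, with limma adjusted p-values of 0.4162 and 0.09223. Its signal exceeded 218.3 in 7 of 24 arrays, 4 of them outside the HeJ 48 h group, so that it passed the filter also without that group.

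The calls of Cyp51, Fdft1 and Idi1 in HeJ at 48 h held under every alternative run for them and when any array was left out. Those of Sqle and Fdps were lost, leaving 3 called members, without HeJ air replicate 2 or 3 or without HeJ 48 h replicate 1 or 2, with limma adjusted p-values of at most 0.1089 for Sqle and 0.1188 for Fdps.

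In the order of the group means, HeJ at 48 h came first for each gene. For Cyp51 it was followed by HeJ at 24 h (214 ± 62.0, SD, n = 3), HeJ at 6 h (209.7 ± 22.9), OuJ at 24 h (193 ± 30.8), OuJ at 48 h (185 ± 45.8), OuJ air (142 ± 23.2), HeJ air (136 ± 15.9) and OuJ at 6 h (124 ± 17.0). For Fdft1 the groups below the top lay between 358 ± 34.3 in OuJ air and 462 ± 90.1 in OuJ at 24 h, and for Idi1 between 452 ± 129 in OuJ at 6 h and 709.9 ± 144 in OuJ at 24 h. Hmgcs1 differed in that the other HeJ groups (2913 to 3308) had higher means than all 4 OuJ groups (2468 to 2657). Below the top group, neighbours in the order had overlapping arrays for all 7 genes, with 1 exception: for Fdps the HeJ 24 h arrays (820 to 933) lay above the next group, OuJ at 6 h (637 to 765).

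**Figure D2:**
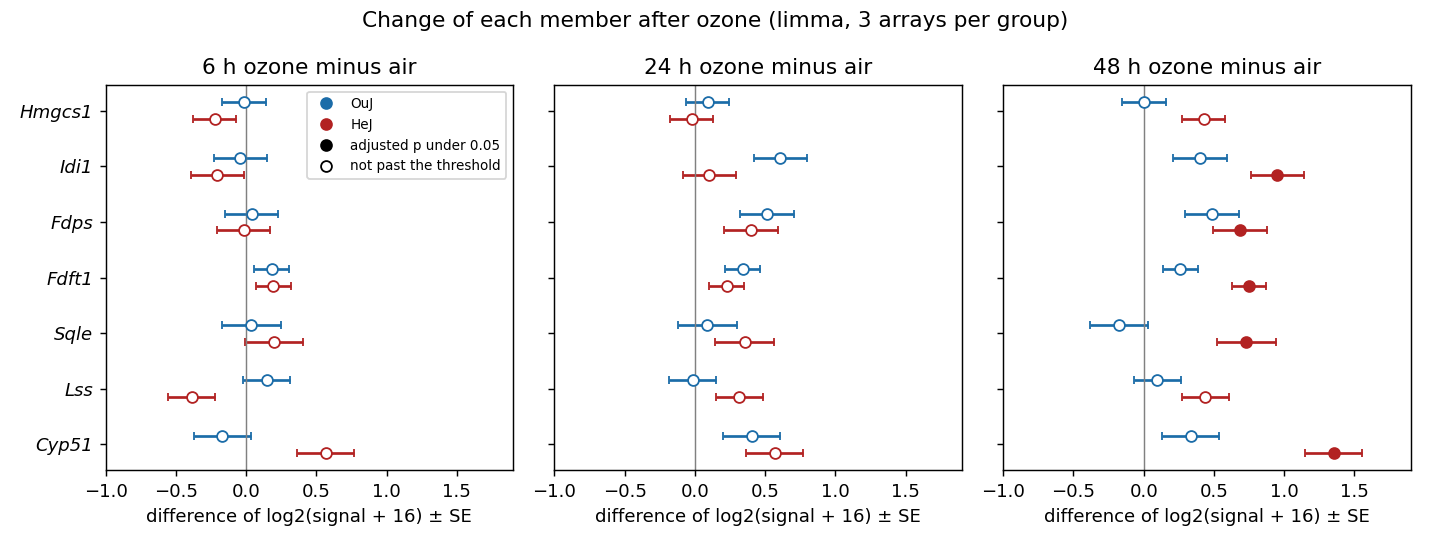
Change of each member after 6, 24 or 48 h of ozone, as the difference of log2(signal + 16) from the air group of the same strain ± SE (limma, 3 arrays per group). Filled points passed the threshold: 5 of 7 members in HeJ at 48 h and none elsewhere, and all HeJ changes at 48 h lie between 0.43 and 1.35.

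At 24 h the members had median changes of 0.34 in OuJ and 0.32 in HeJ, against -0.03 and -0.02 over all genes. None passed, where the comparisons called 6.57% and 7.11% of all genes. In OuJ, 2 members had all 24 h arrays above air, Idi1 and Fdps (0.51 ± 0.19, limma adjusted p = 0.1193). In HeJ, 3 members did: Cyp51, Fdft1 (0.23 ± 0.12, limma adjusted p = 0.2984) and Fdps (0.40 ± 0.19, limma adjusted p = 0.2229). Arrays above air in this way were seen in 11.2% and 10.7% of all genes. The unadjusted p was under 0.05 for 3 of 7 members in OuJ and 2 of 7 in HeJ, against 19.9% and 21.8% of all genes. The 24 h and 48 h comparisons of a strain share its 3 air arrays.

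At 6 h the median changes were 0.04 in OuJ and -0.02 in HeJ, and few genes of any kind were called (0.137% and 0.0375%). The unadjusted p was under 0.05 for 10.5% and 9.03% of all genes. Among the members it was so for 0 in OuJ and for 2 in HeJ: Cyp51, whose arrays all lay above air as in 5.38% of all genes, and Lss (-0.39 ± 0.17, limma adjusted p = 0.5001). The HeJ arrays at 6 h were widely spread for several members. Sqle had signals of 902, 645 and 429.5, Fdps 918, 639 and 441, and Hmgcs1 3686, 3050.2 and 2003. The same array, replicate 1, was the highest of the 3 for 5 of 7 members and replicate 3 was the lowest for 4.

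Between 24 and 48 h of ozone, within 1 code series, 3 members rose in HeJ. All 7 had higher means at 48 h, and those that passed were Idi1 (0.85 ± 0.19, limma adjusted p = 0.01341), Fdft1 (0.52 ± 0.12, limma adjusted p = 0.01875) and Cyp51 (0.79 ± 0.20, limma adjusted p = 0.02497). This comparison called 5.47% of all genes, and 2.62% as higher. For these 3 and for Hmgcs1 (0.45 ± 0.15, limma adjusted p = 0.09139) the 48 h arrays did not overlap the 24 h arrays, which held for 12.3% of all genes. Sqle, Fdps and Lss had changes of 0.38, 0.28 and 0.12. In OuJ, 6 of 7 had lower means at 48 than at 24 h, with changes from -0.27 to 0.11, and none passed (0.15% of all genes were called; the unadjusted p was under 0.05 in 0 members and 7.99% of all genes).

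The HeJ calls between 24 and 48 h depended on single arrays. No member was called without HeJ 24 h replicate 1 or 3, and Idi1 alone without HeJ 48 h replicate 1, 2 or 3. Calls over all genes also fell, from 438 to 104 without either of those 24 h arrays and to 274, 141 and 171 without the 48 h arrays. The change of Fdft1 stayed between 0.46 and 0.56 under all 39 alternatives, while those of Idi1 and Cyp51 ran from 0.49 to 1.03 and from 0.38 to 0.99. A measure of RNA quality, the 5′ to 3′ signal ratio of Gapdh control probes, was 0.605 to 0.944 in HeJ at 24 h, 0.497 to 0.67 at 48 h and 0.511 to 0.621 in air; group means were 0.558 to 0.753 in HeJ and 0.843 to 0.894 in OuJ. The difference in log2 ratio, 48 h minus 24 h, was -0.33 (two-sided exact permutation p = 0.3, where 0.1 is the smallest that 3 against 3 can give). With this ratio as a covariate no member and 86 genes in all were called between 24 and 48 h, and the 5 called against air at 48 h were the same 5.

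The strain difference of the 48 h change was tested directly. HeJ and OuJ at 48 h lie in different code series, so strain and code series cannot be told apart in this difference. The difference was positive, higher in HeJ, for all 7 members, with a median of 0.49 against 0 over all genes. No member passed, and 0 of 8008 genes did in limma (0%); the unadjusted p was under 0.05 for 658 genes (8.22%), 3 of them members. Cyp51 differed by 1.02 ± 0.29 (95% interval 0.43 to 1.61, limma adjusted p = 0.2886), Sqle by 0.91 ± 0.29 (0.30 to 1.52, limma adjusted p = 0.3442) and Fdft1 by 0.49 ± 0.18 (0.13 to 0.85, limma adjusted p = 0.4162). Idi1 differed by 0.55, Hmgcs1 by 0.43 and Lss by 0.34, with intervals that included 0. The strain differences of the 6 h and 24 h changes also had 0 called members, and each called 0.0125% of all genes.

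The strain difference of the change from 24 to 48 h was largest for Idi1 (1.06 ± 0.27, limma adjusted p = 0.1521), Cyp51 (0.85 ± 0.29, limma adjusted p = 0.2921), Sqle (0.64 ± 0.29, limma adjusted p = 0.4279) and Fdft1 (0.60 ± 0.18, limma adjusted p = 0.2208). It passed for 0 members and 0 genes in limma. The unadjusted p was under 0.05 for 885 genes (11.1%), 5 of them members. In air, HeJ and OuJ differed in 0 of 7 members (0.774% of all genes were called), and the unadjusted p was under 0.05 for 1 of 7 members, Hmgcs1, and for 14.2% of all genes.

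Several members have more than 1 probe set, and these did not all show the change. Tested without the filter, 7 of the 19 member probe sets passed in HeJ at 48 h, where 5.04% of 22626 probe sets did. Of the 19, 16 had a higher mean, and among the 8008 genes tested 44.8% did. The brightest probe set of Hmgcs1 did not pass, but 1433445_x_at did (0.77 ± 0.19, limma adjusted p = 0.02054). All 4 probe sets of Hmgcs1 had HeJ 48 h arrays above those in air, as had 13.7% of all genes by their brightest probe set. Fdft1 was called by 2 of its 4 probe sets, 1448130_at and 1438322_x_at (0.59 ± 0.16, limma adjusted p = 0.03426). The dimmer probe set of Idi1, 1423804_a_at, changed in the same direction without passing (0.67 ± 0.21, limma adjusted p = 0.06768). Cyp51 was called by 1450646_at alone: the other 2, with mean signals in HeJ at 48 h of 88.3 and 15.8, were below the filter and had changes of 0.39 ± 0.24 and -0.03 ± 0.32. For Lss the 2 dim probe sets had changes of -0.36 ± 0.55 and -0.16 ± 0.23.

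**Figure D3:**
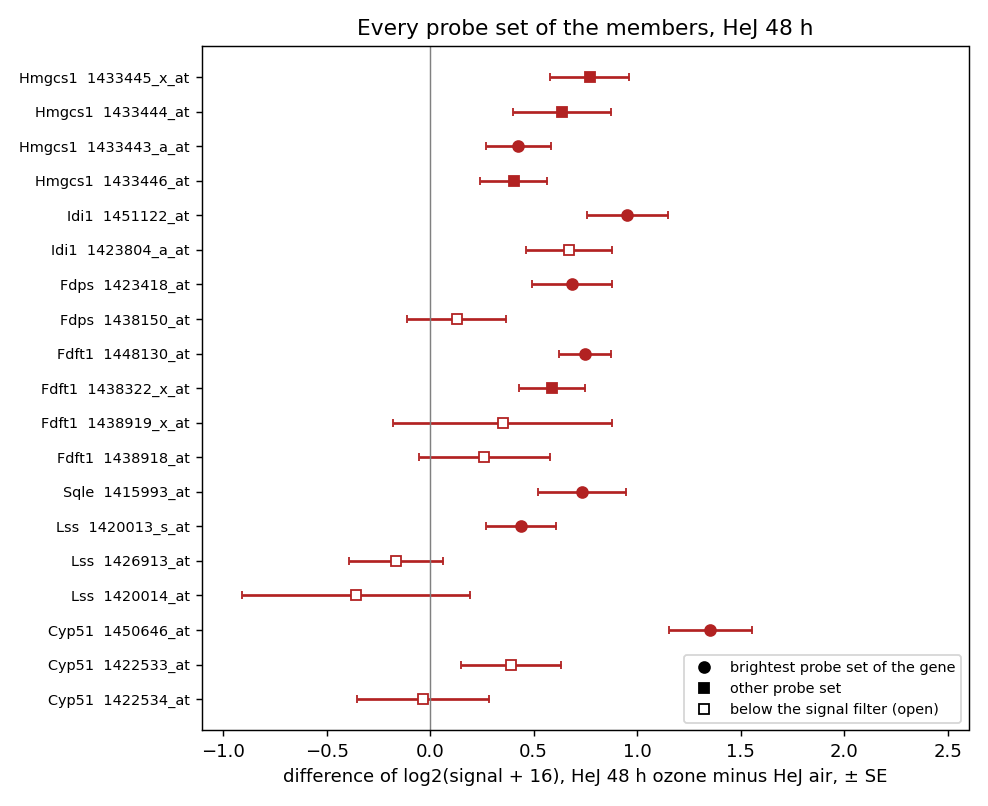
Change of every probe set of the members in HeJ at 48 h against HeJ air, as the difference of log2(signal + 16) ± SE (3 arrays per group). Circles are the brightest probe set of a gene, squares the others, and open symbols were below the signal filter. Values run from -0.36 for a dim Lss probe set to 1.35 for Cyp51.

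Of the other genes of cholesterol and fatty acid metabolism, 49 were listed and 39 measured. In HeJ at 48 h, 6 of the 39 were higher and 3 lower, with a median change of 0.01, and in OuJ 3 were higher and 0 lower. The higher genes include Fasn, Scd1 and Me1 in HeJ and Fasn and Scd1 in OuJ, which belong to fatty acid synthesis. Over all genes, 12.1% were called in HeJ, 5.67% as higher, and 7.9% in OuJ, which the OuJ count is near. These shares also apply to the lists below. The OuJ count fell to 1 without OuJ air replicate 2 or without OuJ 48 h replicate 1 or 3. None of 3 other mevalonate enzymes passed. Among 8 other sterol enzymes the only call was Msmo1 (methylsterol monooxygenase), which acts after Cyp51. Its signals were 343, 379.8 and 372 in HeJ air and 828, 704 and 602 at 48 h, and 329, 371 and 431 in OuJ air and 361, 387 and 391 at 48 h. The HeJ arrays at 48 h were above those in air and the OuJ groups overlapped. Msmo1 rose 1.895-fold in HeJ (0.92 ± 0.21, limma adjusted p = 0.005844), which held under all 37 alternatives, and had a change of 0.02 ± 0.21 in OuJ. Its strain difference was 0.91 ± 0.30 and did not pass (limma adjusted p = 0.3616).

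Of 5 measured regulators of the SREBP pathway 0 passed at 24 or 48 h in either strain, and their changes in HeJ at 48 h lay between -0.14 and 0.15. Srebf1 and Srebf2, which encode the SREBPs, had changes of -0.06 ± 0.12 and -0.14 ± 0.22, and Insig2, a relative of Insig1, had -0.13 ± 0.13. The array measures RNA, and the processing of the SREBP proteins was not measured.

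Genes of uptake and transport went in both directions: of 8 measured, 1 was higher and 2 lower in HeJ at 48 h. Npc2, which moves cholesterol out of lysosomes, rose in HeJ (0.41 ± 0.11, limma adjusted p = 0.01769) and in OuJ (0.42 ± 0.11, limma adjusted p = 0.02263). It also passed as higher at 24 h in both strains, calls that held under 33 of 37 alternatives in OuJ and 26 of 37 in HeJ. Vldlr, a lipoprotein receptor, fell in HeJ (-0.70 ± 0.17, limma adjusted p = 0.008166), as did Mylip, a ubiquitin ligase that degrades lipoprotein receptors (-0.60 ± 0.18, limma adjusted p = 0.02833). In OuJ both were lower without passing, by -0.38 ± 0.17 and -0.41 ± 0.18. Scarb1, the scavenger receptor for high-density lipoprotein, passed in OuJ at 24 h by a small margin (0.37 ± 0.11, limma adjusted p = 0.04333). That call held under 21 of 37 alternatives and was lost without any 1 of the OuJ 24 h arrays, among others (limma adjusted p-values of at most 0.1739). The OuJ call of Npc2 at 48 h was lost without OuJ air replicate 2 or 3 or OuJ 48 h replicate 1 or 3.

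Of 5 measured genes of efflux and of the sterol sensor LXR, 1 was higher and 1 lower in HeJ at 48 h. Ch25h, which makes 25-hydroxycholesterol, rose (0.78 ± 0.19, limma adjusted p = 0.01027). In OuJ it passed at 24 h, a call that held under 31 of 37 alternatives, and did not pass at 48 h. Its mean signals were 386 in OuJ air, 621 at 24 h and 538 at 48 h. In HeJ they were 407 in air, 589 at 24 h and 713 at 48 h. Abca1, which exports cholesterol, had signals of 1268, 1341 and 1064 in HeJ air and 828, 799.8 and 829.9 at 48 h, and 1085, 1113 and 965 in OuJ air and 1318, 1104 and 909.7 at 48 h. The HeJ groups did not overlap and the OuJ groups did. Abca1 fell in HeJ (-0.56 ± 0.17, limma adjusted p = 0.02913), also against 24 h (-0.88 ± 0.17, limma adjusted p = 0.004017). Its change in OuJ at 48 h was 0.06 ± 0.17.

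Of 10 measured fatty acid synthesis genes, 3 rose in HeJ at 48 h: Fasn (fatty acid synthase, 0.41 ± 0.12), Scd1 (stearoyl-CoA desaturase, 0.61 ± 0.14) and Me1 (malic enzyme, 0.49 ± 0.12). Fasn and Scd1 also rose in OuJ at 48 h (0.62 ± 0.12 and 0.51 ± 0.14) and at 24 h (0.61 ± 0.12 and 0.49 ± 0.14). The OuJ calls of Fasn held under all 37 alternatives. Those of Scd1 held under 33 of 37 at 48 h and 29 of 37 at 24 h, and were lost without OuJ air replicate 1 or 2 and without replicate 1 or 3 of the exposed group, and at 24 h also with quantile normalization, no filter, no intensity trend or the mean of the probe sets (limma adjusted p-values of at most 0.1233 and 0.1595). When each array was left out in turn, 3 to 7 of the 39 pathway genes were higher and 0 to 3 lower in HeJ at 48 h. The calls of Mylip, Abca1 and Fasn were lost without any 1 of the HeJ 48 h arrays, and without HeJ air replicates 2 or 3 for Mylip, 1 or 2 for Abca1 and 1 or 3 for Fasn (limma adjusted p-values of at most 0.1161, 0.1426 and 0.09566). Those of Mylip and Abca1 were also lost without the arrays whose sample codes carry a suffix. In HeJ at 48 h, the call of Vldlr was lost without HeJ air replicate 2. That of Npc2 was lost without HeJ air replicate 1 or HeJ 48 h replicate 1, and with no filter. That of Ch25h was lost without HeJ air replicate 1 or HeJ 48 h replicate 2. That of Me1 was lost without HeJ air replicate 3 or HeJ 48 h replicate 1. It was also lost with the mean of the probe sets and in a fit on only the groups compared.

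**Figure D4:**
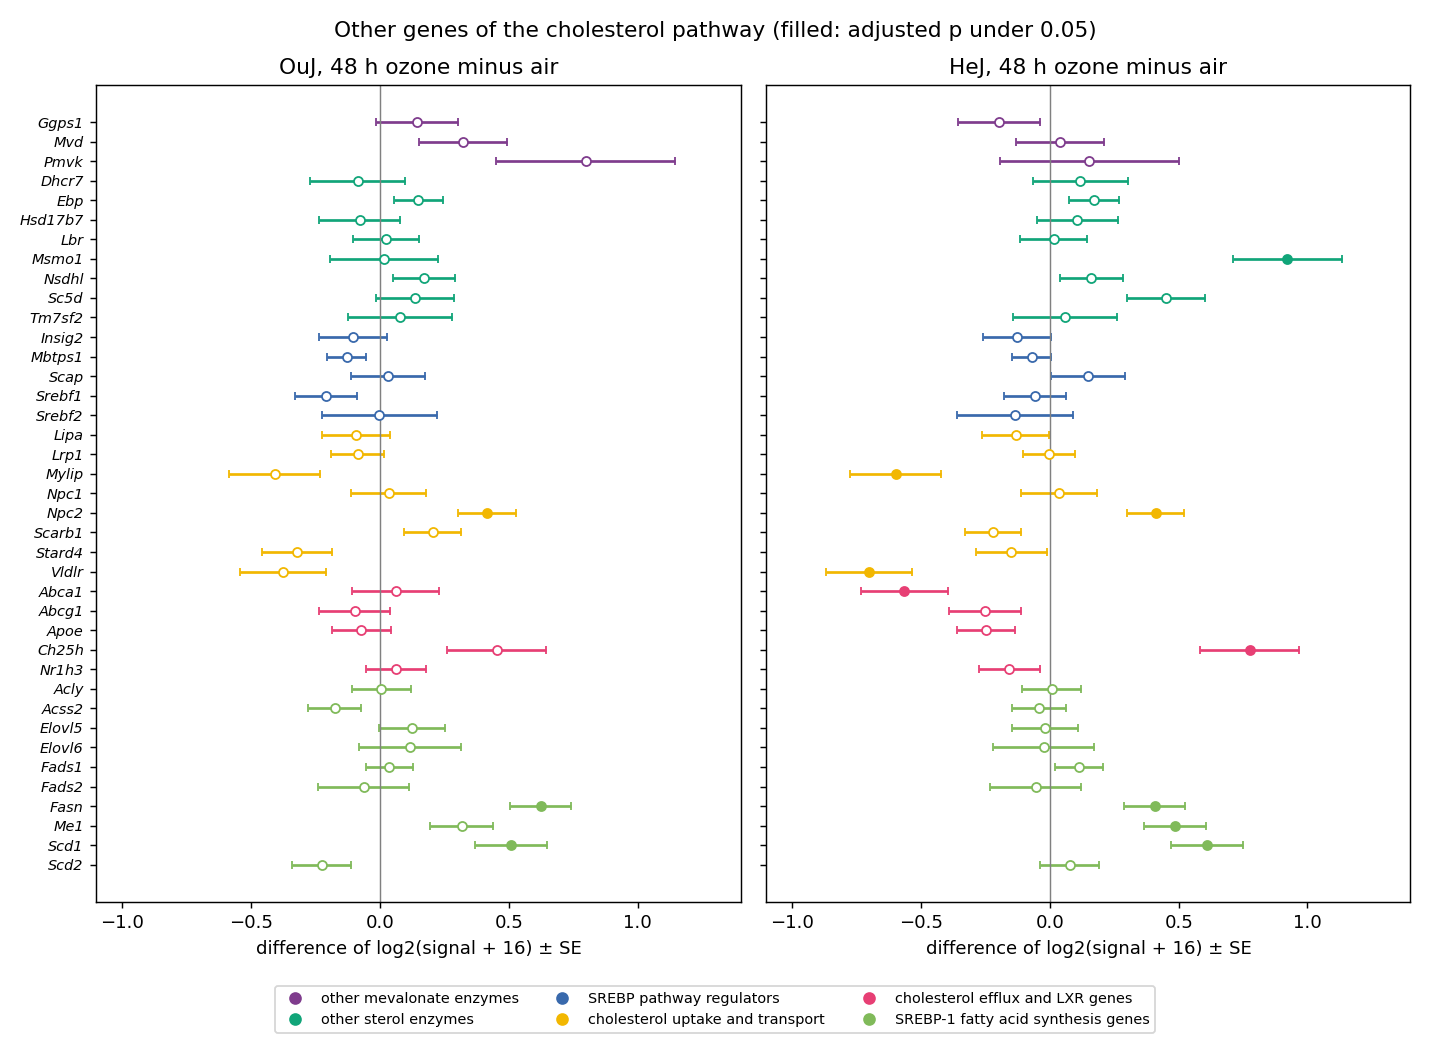
Change of the 39 other measured genes of cholesterol and fatty acid metabolism at 48 h of ozone in OuJ (left) and HeJ (right), as the difference of log2(signal + 16) from the air group of the same strain ± SE (3 arrays per group). Colours are the 6 gene lists and filled points passed the threshold, 3 in OuJ and 9 in HeJ.

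At 48 h, 7.9% of all genes were called in OuJ and 12.1% in HeJ, 5.67% as higher. Other cell markers also moved in HeJ at 48 h. Cell cycle genes were higher in 5 of 9 measured, with a median change of 0.83 and a summed signal of 3306 to 4340 in air and 5987 to 6534 at 48 h. Their rise was present in OuJ at 48 h too, in 8 of 9 genes with a summed signal of 6735 to 7582. A part of cell division in the members' change was not tested. The proliferation marker Mki67 was at 106 to 177 in HeJ air, 353 to 471 in HeJ at 48 h and 419 to 489 in OuJ at 48 h. Alveolar type 2 markers passed as higher in 1 of 8 genes in HeJ, with summed signals of 115400 to 123700 in air and 119300 to 129300 at 48 h.

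Macrophage markers were higher in 2 and lower in 2 of 8 genes in HeJ at 48 h, with summed signals of 38530 to 41050 in air and 34670 to 38780 at 48 h, while Marco, a receptor of alveolar macrophages, went from 124 to 235 in air to 534 to 1257. B cell markers were lower in 5 of 5 genes (3297 to 4124 in air, 1413 to 1786 at 48 h), T and NK cell markers in 4 of 5 (1654 to 2291, then 703 to 930.1) and endothelial markers in 5 of 7 (29910 to 31790, then 23420 to 25850). In OuJ at 48 h, B cell markers were lower in 4 of 5 (3078 to 3816, then 1654 to 1814). T and NK cell markers were lower there in 1 of 5 (2174 to 2939, then 1172 to 1307). Endothelial markers were lower there in 3 of 7 (25390 to 29070, then 20260 to 22160). In HeJ at 48 h, smooth muscle markers were higher in 2 of 5, and adipocyte markers passed in 0 of 3. None of the defining markers of these lists was at 0, and the part of these cell types in the members' change was not tested.

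Across the 8 group means, the genes whose standardized profile was most like the mean profile of the 7 members were Pglyrp1 (r = 0.982), Psmb5 (0.977), Timm13 (0.977), Wdr75 (0.974), Heatr1 (0.969), Eif5a (0.967), Tceal9 (0.964) and Psmg1 (0.962). Of 8001 genes compared, 0.975% had an r over 0.9. Members correlated with their own mean profile at 0.71 for Fdps to 0.957 for Idi1. Each member is part of that mean, which raises its r, so these values are not comparable with those of the other genes. The 8 named genes outside the members are described only. They were picked for a profile that is highest in HeJ at 48 h, so a rise there follows from the choice and is no support. Their changes in HeJ at 48 h ran from 0.32 ± 0.14 for Psmg1 to 1.16 ± 0.23 for Pglyrp1, a peptidoglycan recognition protein. Heatr1, a nucleolar protein of ribosome assembly, changed by 1.01 ± 0.11, and Psmg1 and Timm13 did not pass. These likenesses rest on 8 points that share arrays and scaling, and are a description.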

How the data were processed

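The deposited table gives linear signal intensity for 22690 probe sets and no detection calls. Per the submitters' processing notes, the authors computed it in GCOS 1.4. The 2% trimmed mean of each array was between 499.96 and 500.39. Of the probe sets, 20393 carry 1 gene symbol and 691 several, in GEO's platform annotation. From the intensities log2(signal + 16) was computed. This scale understates changes of dim genes. A probe set was kept where 3 or more of 24 arrays exceeded 218.3 (the overall median), and the brightest stood for its gene, which left 8008 genes. limma 3.58.1 in R 4.3.3 fitted 1 mean per group to all 24 arrays with an intensity trend. P-values of 13 comparisons are two-sided and Benjamini-Hochberg adjusted over all genes within each, with a threshold of 0.05. With 3 arrays per group, the number of arrays limits the precision. Per the labels, replicates are different mice.

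The members and gene lists were chosen with earlier results of these data known. Named genes are the members, the SREBP genes and Insig2, up to 4 called genes of each other pathway list with the smallest p, and the 8 genes most like the members. Alternatives covered normalization, pseudocount, filter, probe sets, variance model, covariates, array weights, code series and arrays left out. The scripts were tested on simulated data.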

Additional observations from a re-analysis of the deposited data

How the results depend on the processing

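The number of called members in HeJ at 48 h against air, 5, became 3 without the 4 arrays whose sample codes carry a suffix (Cyp51, Fdft1 and Idi1), and ran from 3 to 6 when each array was left out in turn. A filter on the mean dropped Cyp51 from the test and left 4, and a fit on only the groups compared gave 6, with Hmgcs1. Between 24 and 48 h in HeJ, 3 called members became 0 with the Gapdh ratio as a covariate, where calls over all genes fell from 438 to 86, and 0 without the arrays with a code suffix, where 1 gene in all was called. The latter leaves HeJ at 24 h with 1 array, assumed to vary like the other groups. Leaving out each array gave 0 to 4, and a fit within the code series gave 2 (Fdft1 and Idi1). In OuJ at 24 h, 0 became 1 with quantile normalization (Idi1), 2 with median centring (Fdft1 and Idi1), 2 with array weights (Idi1 and Fdps) and 0 to 1 when each array was left out. In OuJ at 48 h, 0 became 1 with array weights and 1 in a fit on only the groups compared, Fdps in both. The cause of these shifts was not tested. Across 91 member results and 3487 values under the alternatives, 76 changed sign, all of them values that were not called, and 0 called values reversed.

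The replicate numbers of the labels were not used as pairs. Over 84 pairs of same-numbered arrays the correlation of deviations from the group means was -0.102 to 0.201, over 0.1 in 9. Low correlations do not show that same-numbered mice were handled apart. With the replicate block, HeJ at 48 h against air had 5 called members and 48 against 24 h had 3, as without it, and the block changed no other member's call. It ended the call of Scarb1 in OuJ at 24 h. A lack of detection calls and 3 arrays per group limit what can be said of the dim probe sets of Cyp51 and Lss.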
